A study of Mus musculus with 8 samples.

Results

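Short RNAs from one group of similar repeat copies were examined in mouse sperm. The best covered copy lies on chromosome 16, inside an intron of Zc3h7a, which encodes a CCCH-type zinc finger protein, and a further copy lies on chromosome 1. Each short RNA name was kept once per table, at its first locus after sorting by chromosome as text and then by start. Names whose kept locus fell within chr1:167340260-167340550 or chr16:11143930-11144315 were members. They numbered 366 of 13450 names in the table of MC-LR and control libraries, 155 at chromosome 1 and 211 at chromosome 16. In the table of shRNA libraries they numbered 414 of 17375 names, 223 at chromosome 1 and 191 at chromosome 16. The tables shared 272 of these names, which is 74.3% and 65.7% of their members. No kept name crossed a window's edge, and the nearest kept name outside lay at least 977 kb away. In the chromosome 16 window, a further 164 (MC-LR table) and 198 (shRNA table) names were listed but kept at other loci of chromosomes 1 or 13, and are not members.

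Small RNA was measured in sperm of Balb/c mice at postnatal month 8, in 4 groups of 2 libraries, named A and B. The groups were MC-LR exposure, its control, an shRNA against Hsp90aa1, and a negative-control shRNA. Microcystin-LR (MC-LR) is a cyclic peptide toxin of cyanobacteria that inhibits serine/threonine protein phosphatases, and Hsp90aa1 encodes an inducible cytosolic form of the chaperone HSP90. The labels give neither an MC-LR dose nor a delivery route for the shRNAs. They do not say that libraries A and B are different animals, so the p-values cover library-to-library spread, possibly only technical.

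PIWI-interacting RNAs (piRNAs) are small RNAs of the germ line that PIWI proteins carry, and many start with uridine. They are known for silencing transposable elements, and in mice most of the abundant ones come from a limited set of genomic clusters during meiosis. A read from a stretch that repeat copies share letter for letter fits each of those copies, so its sequence does not tell them apart, and a name in a piRNA catalogue does not by itself show that PIWI proteins carried the RNA.

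The label of the loci, Zc3h7a, describes where the chromosome 16 copy lies, not a transcript of that gene. The listed loci run on the plus strand at chr16:11143955-11144304 (mm10), antisense to Zc3h7a. Of the members, 360 of 366 and 408 of 414 were listed at more than 1 locus, up to 5, with values that differed between loci for 2 members in each table. The reads of those members therefore cannot be assigned to 1 copy, while 6 members of either table were listed at 1 locus alone. The other long copies are on the minus strand at chr1:167340267-167340543, which holds the predicted microRNA gene Gm25911, and at chr9:56223611-56223911, in an intron of Peak1 that holds Gm24270. Shorter stretches were listed at chr4:139338150-139338361, which holds Gm25732 and Gm24245, in introns of Atf2, Zfp791, Col6a6 and Itga9, within the long noncoding RNA gene Gm26561, and at chr13:9834381-9834465 and chr3:83124116-83124174, where GENCODE M21 annotates no gene.

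The copies share a block that GENCODE annotates as predicted microRNA genes. Its sequences are shown because, within this block, little separates the chromosome 16 copy from the chromosome 1 copy. The rest of the copies was not compared by sequence. Members kept at chromosome 1 started no later than base 11144240 on the chromosome 16 copy. No name of the last stretch described below was therefore listed in the chromosome 1 window. The letters are those of GENCODE M21 transcripts on GRCm38, 5′ to 3′, and capitals mark where the copies differ. Positions are counted from 1 at the 5′ end of Gm23935. Gm25911 differs by G14A and lacks the base at position 34. Gm24270 and Gm24245 have the same letters as Gm23935.
Gm23935, chr16:11144125-11144181, plus strand: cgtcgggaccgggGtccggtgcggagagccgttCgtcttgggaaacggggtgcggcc
Gm25911, chr1:167340369-167340424, minus strand: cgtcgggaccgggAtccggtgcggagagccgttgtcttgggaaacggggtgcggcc

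Within this block, names formed nested sets that start at the same base and end at different ones. The names below start at the base 4 of Gm23935 and show that pattern, with the bases beyond the shortest name in capitals. They span position 14 of Gm23935 with the letter of that copy and not of Gm25911.
piR-mmu-11433559, chr16:11144128-11144151, 24 nt: cgggaccggggtccggtgcggaga
piR-mmu-3762304, chr16:11144128-11144158, 31 nt: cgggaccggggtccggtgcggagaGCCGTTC
piR-mmu-51744594, chr16:11144128-11144160, 33 nt: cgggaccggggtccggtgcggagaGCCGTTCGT
The 33 nt name holds the 24 nt name whole and adds 9 bases at its 3′ end. Transcript sequence covered 13 members in the MC-LR comparison and 17 in the shRNA comparison. Of these, 10 of 13 and 15 of 17 began with C, and 2 in each table began with T, the letter that stands for uridine here. None of 114 stretches of 18 nt from the annotated copies occurred in the 356 ribosomal RNA transcripts of GENCODE M21. The large-subunit ribosomal RNA was not used here, so this count cannot speak to a resemblance to it, which was not tested.

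Along the chromosome 16 copy the names fell into 5 stretches. The first covered chr16:11143955-11144036, with 68 members in the MC-LR table and 54 in the shRNA table. The second, chr16:11144060-11144094, had 7 and 1. The third, chr16:11144110-11144182, holds Gm23935 and had 15 and 21. The fourth, whose names started at chr16:11144185-11144240, had 143 and 212, and the last, chr16:11144257-11144304, had 126 and 119. No chromosome 16 locus was listed for 7 members of either table. Members were 17 to 34 nt long over both tables, with a median of 27 nt in each.

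Levels are RPM, read counts scaled to a library's total, as the authors deposited them. Library totals, recovered from the RPM steps, were 4960467 to 14634370 reads, and a floor of 3 reads equals 0.205 to 0.605 RPM. Every listed name had at least 1 read in each library of its table. A name that lacked reads in a single library may therefore be unlisted, so absence from a table does not show a lower level. The median member had 8 and 10 reads under MC-LR, against 66 and 20 in control. It had 9 and 5 reads with the Hsp90aa1 shRNA, against 33.5 and 41.5 with the negative-control shRNA. The names of each table together took 11.7% to 12.5% of reads under MC-LR, against 35.2% and 38.1% in control, and 3.16% and 4.88% with the Hsp90aa1 shRNA, against 27.7% and 32.3% with the negative-control shRNA. In sperm samples, fewer cells of a type and less RNA per cell cannot be told apart. Of 5 microRNA genes that mark sperm and late germ cells, none had a listed name in the MC-LR table and 3 had names in the shRNA table, summing to 163 and 634 RPM with the Hsp90aa1 shRNA, against 1327 and 2641 RPM with the negative-control shRNA. All 5 epithelial microRNA genes had names, at 2408 to 2490 RPM under MC-LR, against 4690 to 6388 RPM in control, and at 110 to 399 RPM with the Hsp90aa1 shRNA, against 2591 to 3801 RPM with the negative-control shRNA. Smooth muscle markers (2 of 2) held 108 to 133 RPM under MC-LR, against 219 to 297 RPM in control, and 219 to 1023 RPM with the Hsp90aa1 shRNA, against 3682 to 7180 RPM with the negative-control shRNA. Blood markers (3 of 3 and 2 of 3) held 8.58 to 13.4 RPM under MC-LR, against 22.0 to 22.8 RPM in control, and 63.9 to 73.3 RPM with the Hsp90aa1 shRNA, against 335 to 548 RPM with the negative-control shRNA, while liver Mir122 had no listed name. The part of these cell types in the results was not tested.

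The first comparison asked how exposure to MC-LR changed these RNAs. Members were mostly lower under MC-LR, except for 2 short names of the second stretch with one shared 5′ end, which were higher. Summed over members the level was 1919 and 1792 RPM under MC-LR, against 5443 and 5563 RPM in control. Both MC-LR libraries were below both control libraries. The mean was 1856 ± 89.8 RPM under MC-LR and 5503 ± 84.9 RPM in control (SD, n = 2 each), 2.97-fold lower under MC-LR. An exact two-sided permutation test of 2 against 2 gave p = 0.333, the smallest it allows.

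Of 358 members tested by limma on log2(RPM + 1) over all names, with Benjamini-Hochberg adjusted p under 0.05, 247 were lower and 2 were higher, against a background of 73.1% lower and 2.37% higher among all 13271 names tested. The members' 69.0% lower is near that background. The median log2 fold change was -1.03 over members and -1.17 over all names tested. Libraries did not overlap, with MC-LR lower, for 341 of 366 members (92.6% over all names), and with MC-LR higher for 2 (2.33%). The fall is one of the whole list relative to library totals: with edgeR's TMM factors, which set the middle of the list to no change, 0 members were lower and 2 higher after adjustment, against 3.05% lower and 2.37% higher of all names tested, with 13 lower and 3 higher at an unadjusted p under 0.05. With DESeq2 size factors, which gave 208 members an adjusted p and 150 none, 0 were lower and 2 higher, against 4.13% and 3.28% of all names with an adjusted p, and 7 members were lower at an unadjusted p under 0.05. Leaving out MC-LR A or MC-LR B left 105 or 113 members lower.

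**Figure D1:**
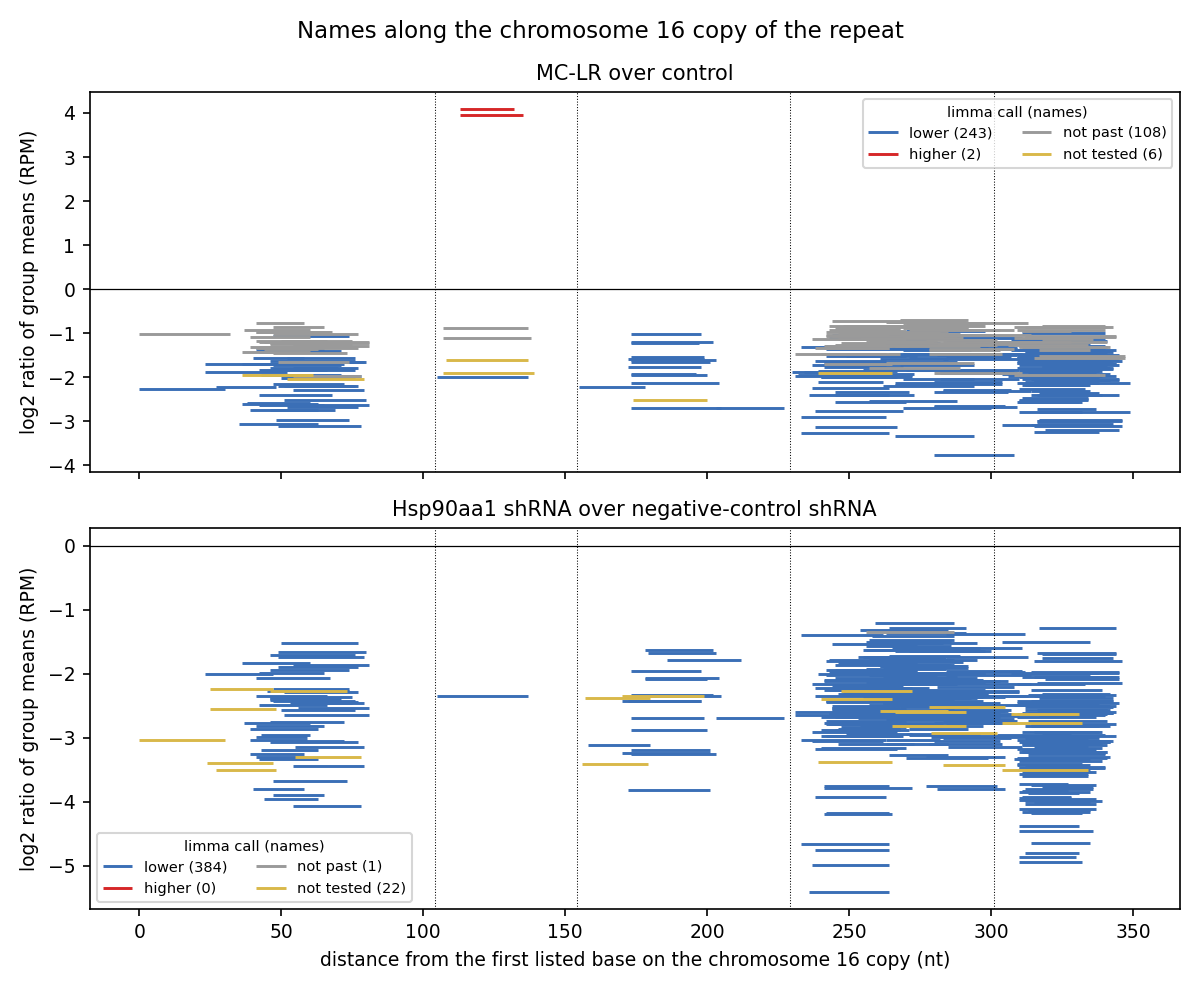
Each bar is a member with a chromosome 16 locus; the x axis is its distance along that copy in nt, the y axis its log2 ratio of group means in RPM, and colours give the limma call, with dotted lines between the 5 stretches. In the upper plot (MC-LR over control) the 2 higher names stand alone in the second stretch near 4 on the log2 scale, and in the lower plot (Hsp90aa1 shRNA over negative-control shRNA) all bars are below 0.

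The 2 higher names lie in the second stretch, upstream of the block shown above, where no transcript sequence covers them. piR-mmu-8117009, a 20 nt name at chr16:11144068-11144087, chr1:167340462-167340481 and chr9:56223779-56223798, measured 52.7 and 48.8 RPM under MC-LR, against 4.17 and 1.81 RPM in control. Both MC-LR libraries stood far above both control libraries, and the control values differed more from each other, as a ratio, than the MC-LR values did. By limma its log2 fold change was 3.76 with an SE of 0.39 (adjusted p = 0.000243), the largest of the 314 rises in the table. piR-mmu-8117010, a 23 nt name at chr16:11144068-11144090 and chr9:56223776-56223798, measured 20.9 and 16.004 RPM under MC-LR, against 1.57 and 0.806 RPM in control. Again the groups did not overlap, although control B rests on 4 reads. By limma its log2 fold change was 3.16 with an SE of 0.36 (adjusted p = 0.000243), the eleventh largest rise. Both ranks are on the scale of log2(RPM + 1), which understates the change of low names. In ratios of group means in RPM, piR-mmu-8117009 was 16.96-fold and piR-mmu-8117010 15.5-fold higher under MC-LR.

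Both names start at the same base and differ by 3 nt at the 3′ end. The level of the 20 nt name over that of the 23 nt name was 2.52 and 3.05 under MC-LR, and 2.65 and 2.25 in control, so this ratio did not separate the groups. Both were called higher in all 13 alternative settings, with log2 fold changes of 3.32 to 5.70 for piR-mmu-8117009 and 2.91 to 5.55 for piR-mmu-8117010. The settings refit the same 4 libraries, and the members were chosen with earlier results of these data known. Their agreement is therefore no independent evidence of the rise. Neither of these 2 names was listed in the shRNA table. Listed names had reads in every library of a table, so this does not show that both were absent there. Among the 314 rises in the whole table, 6 were of 17 to 20 nt, a length held by 872 of the 13271 names tested. A further 3 were of 21 to 23 nt, for which no such total was taken.

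Longer names that hold the whole of these 2 names were not higher. piR-mmu-55844084, 31 nt from 6 bases upstream, measured 4.71 and 3.81 RPM under MC-LR, against 6.29 and 9.47 RPM in control. The groups did not overlap, but the change was not past the threshold (log2 fold change -0.74, limma adjusted p = 0.0770). piR-mmu-52286977, 1 nt longer at the 3′ end, measured 2.19 and 1.52 RPM under MC-LR, against 2.60 and 5.44 RPM in control (log2 fold change -0.76, limma adjusted p = 0.0860). The 5 other names of the second stretch summed to 7.74 and 6.10 RPM under MC-LR, against 12.1 and 17.5 RPM in control, 2.14-fold lower under MC-LR. Without control A both were called lower. Under scalings within the list piR-mmu-55844084 and piR-mmu-52286977 turned to positive log2 fold changes without passing the threshold. The sum of the whole second stretch was 81.3 and 70.9 RPM under MC-LR, against 17.8 and 20.2 RPM in control.

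**Figure D2:**
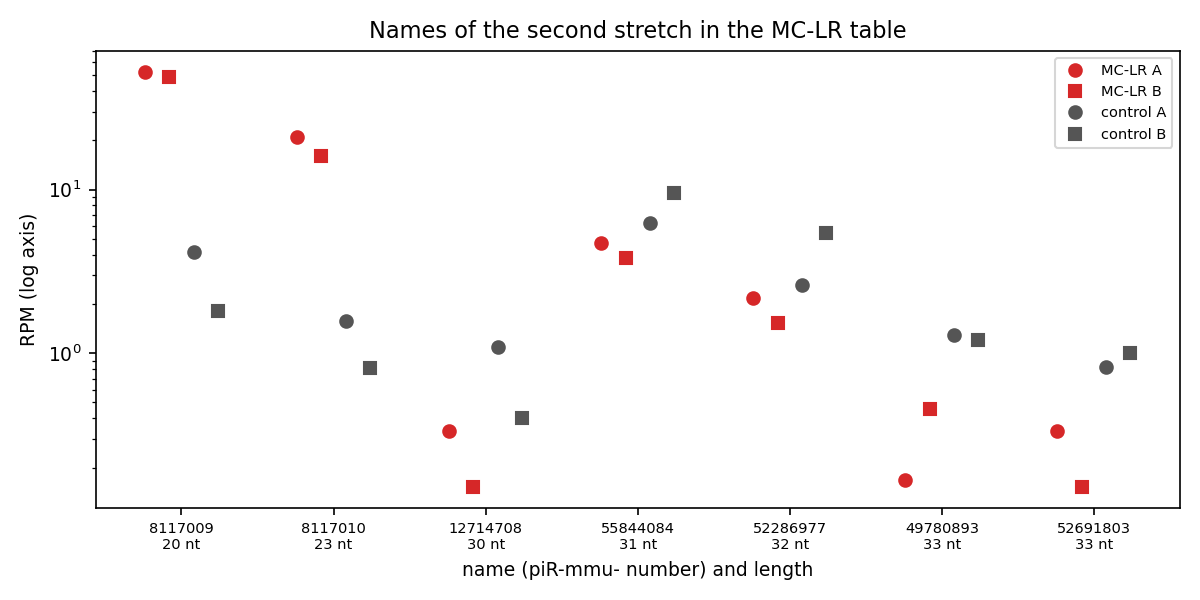
Level in RPM (log axis) of the 7 names of the second stretch in each library of the MC-LR table, with MC-LR in red left of control in grey, circles for A and squares for B. The 20 nt and 23 nt names are higher in both MC-LR libraries, and the names of 30 to 33 nt are lower in both.

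The other stretches were lower under MC-LR by similar factors. The first summed to 50.8 and 61.4 RPM under MC-LR, against 183 and 140 RPM in control, 2.88-fold lower, with 39 of 66 tested members (59.1%) called lower by limma. The third, with Gm23935, summed to 65.0 and 79.3 RPM under MC-LR, against 197 and 239 RPM in control, 3.03-fold lower, with 14 of 14 called lower. The groups did not overlap in either. The fourth summed to 309 and 304 RPM under MC-LR, against 817 and 879 RPM in control, 2.77-fold lower, with 81 of 142 (57.0%) called lower. The last carried most of the signal, 1409 and 1273 RPM under MC-LR, against 4211 and 4271 RPM in control, 3.16-fold lower, with 108 of 126 (85.7%) called lower. Against the 73.1% of all names tested, the first and the fourth stretch thus had a smaller share of lower calls, and the third and the last a larger one, and these differences were not tested. The stretches also differed in level. The median member averaged 1.31 and 2.44 RPM in the first and the fourth, against 4.83 and 9.23 RPM in the third and the last. The median log2 ratio of means was -1.66 in the first and -1.71 in the last, while the median limma log2 fold change was -0.83 and -1.47. The pseudocount of 1 in limma understates the change of low names, and its part in these shares was not tested. The last stretch held 72.3% of the members' sum under MC-LR and 77.1% in control. Of the nested names printed above, piR-mmu-3762304 measured 2.36 and 2.90 RPM under MC-LR, against 5.60 and 10.5 RPM in control (log2 fold change -1.27, limma adjusted p = 0.0144). The 24 nt piR-mmu-11433559 measured 0.505 and 0.762 RPM under MC-LR, against 2.19 and 2.62 RPM in control (log2 fold change -1.06, limma adjusted p = 0.0144). The 33 nt piR-mmu-51744594 measured 0.337 and 1.22 RPM under MC-LR, against 2.19 and 7.86 RPM in control (log2 fold change -1.63, limma adjusted p = 0.0150). None of these 3 overlapped between groups, and the MC-LR values rest on 2 to 19 reads. Without MC-LR A all 3 calls were lost (limma adjusted p = 0.0924, 0.124 and 0.0675 in that order), and without MC-LR B that of piR-mmu-11433559 was lost (0.0625).

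**Figure D3:**
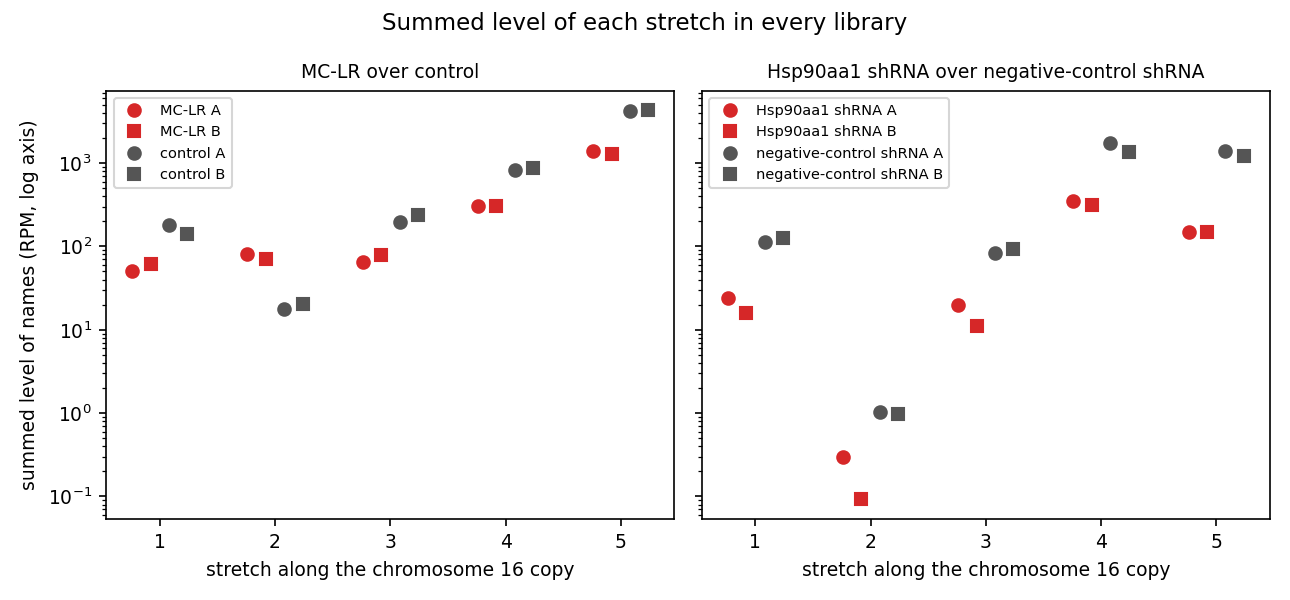
Summed level in RPM (log axis) of the names of each stretch in each library, with the exposed or Hsp90aa1 shRNA libraries in red left of their controls in grey, circles for A and squares for B. In the left plot the second stretch alone is higher under MC-LR; in the right plot all 5 stretches are lower with the Hsp90aa1 shRNA.

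The 6 most abundant members of the MC-LR table were all in the last stretch. piR-mmu-13971141 (30 nt, chr16:11144266-11144295) measured 124 and 94.0 RPM under MC-LR, against 205 and 232 RPM in control. piR-mmu-5826076 (31 nt, starting 1 base earlier with the same 3′ end) measured 92.4 and 86.7 RPM under MC-LR, against 158 and 282 RPM in control. The groups did not overlap, with log2 fold changes of -1.01 and -1.23 (limma adjusted p = 0.0223 and 0.0149), and both calls were lost when MC-LR A or MC-LR B was left out. piR-mmu-6476017 (23 nt, chr16:11144265-11144287) measured 29.6 and 28.4 RPM under MC-LR, against 236 and 168 RPM in control, the deepest fall of the 6 (limma adjusted p = 0.000265 for a log2 fold change of -2.74 with an SE of 0.35). piR-mmu-11438678 (26 nt) measured 23.9 and 30.5 RPM under MC-LR, against 121 and 112 RPM in control. These 2 names showed wide gaps between the groups. piR-mmu-15274002 (28 nt) and piR-mmu-10898342 (27 nt), which share a 3′ end, had log2 fold changes of -1.59 and -1.83 (limma adjusted p = 0.00259 and 0.00135). Their levels were 66.1 and 59.3 RPM, and 56.9 and 48.5 RPM, under MC-LR, against 189 and 192 RPM, and 201 and 177 RPM, in control. The deepest fall of any member by group means was that of piR-mmu-2163093 (29 nt, chr1:167340287-167340315), at 0.337 and 0.610 RPM under MC-LR, against 5.88 and 7.06 RPM in control, 13.7-fold lower on 2 and 4 reads under MC-LR. At chromosome 1 the 30 nt piR-mmu-23560495 measured 29.3 and 22.7 RPM under MC-LR, against 95.3 and 135 RPM in control (log2 fold change -2.09, limma adjusted p = 0.000930).

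Of 19 members of 17 to 20 nt, 9 were lower and 1 was higher, against 49.7% and 0.688% of all tested names of that length. Of 339 members of 21 nt or more, 238 were lower and 1 higher, against 74.7% and 2.48%. piR-mmu-49693443 (19 nt) measured 7.41 and 11.3 RPM under MC-LR, against 43.3 and 17.9 RPM in control (log2 fold change -1.51, limma adjusted p = 0.0139), a call that was lost without MC-LR A (0.0862). piR-mmu-34734452 (19 nt) measured 9.09 and 11.1 RPM under MC-LR, against 33.6 and 13.1 RPM in control, which did not pass the threshold (limma adjusted p = 0.0597) but did so without control B. In both, the control libraries lay far apart, with control A the higher. Summed over the names of 17 to 20 nt in the last stretch, control A and B had 199 and 79.6 RPM, while names of 30 nt or more there had 956 and 1659 RPM, so the control libraries differed in length profile. piR-mmu-48815055 (20 nt) measured 6.56 and 6.10 RPM under MC-LR, against 33.4 and 17.1 RPM in control.

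The second comparison asked how an shRNA against Hsp90aa1 changed the same RNAs. It shares no library with the first, and the tables were scaled apart, so no test was made between them. Every member was lower with the Hsp90aa1 shRNA in both libraries. The members' sum was 543 and 487 RPM with the Hsp90aa1 shRNA, against 3316 and 2781 RPM with the negative-control shRNA. The groups were far apart, with means of 515 ± 39.5 RPM with the Hsp90aa1 shRNA and 3048 ± 378 RPM with the negative-control shRNA (SD, n = 2 each), 5.92-fold lower with the Hsp90aa1 shRNA (exact two-sided permutation p = 0.333, the smallest possible). By limma with Benjamini-Hochberg adjustment, 391 of 392 tested members were lower and 0 higher, against 99.5% lower and 0.219% higher of all 16857 names tested. All 414 members had non-overlapping libraries with the Hsp90aa1 shRNA lower, against 99.8% of all names, and none was higher, against 0.213%. The median log2 fold change was -1.37 over members and -1.66 over all names tested. With TMM factors in edgeR, 0 members were lower and 0 higher after adjustment, against 0.089% and 0.219% of all names tested, with 14 lower and 20 higher at an unadjusted p under 0.05. With DESeq2 size factors, which gave 98 members an adjusted p and 294 none, these counts were 0 and 0, against 3.0% and 0.766% of all names with an adjusted p, with 7 and 15 at an unadjusted p under 0.05. The share of member RPM in the sum of all listed names was 1.11% and 1.54% with the Hsp90aa1 shRNA, against 1.20% and 0.862% with the negative-control shRNA.

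With the Hsp90aa1 shRNA the summed level of the last stretch was lower by the largest factor and that of the fourth by the smallest. The last summed to 148 and 149 RPM with the Hsp90aa1 shRNA, against 1387 and 1204 RPM with the negative-control shRNA, 8.73-fold lower. The fourth summed to 349 and 310 RPM with the Hsp90aa1 shRNA, against 1718 and 1349 RPM with the negative-control shRNA, 4.65-fold lower. The fourth therefore held 63.9% of the members' sum with the Hsp90aa1 shRNA, against 50.3% with the negative-control shRNA, and the last held 28.8%, against 42.5%. The first stretch was 5.97-fold and the third 5.72-fold lower, and the single name of the second 5.11-fold lower.

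The 26 nt piR-mmu-28110196 (chr1:167340308-167340333), the most abundant member of that table, measured 23.8 and 12.9 RPM with the Hsp90aa1 shRNA, against 88.4 and 106 RPM with the negative-control shRNA. The groups did not overlap, and limma gave an adjusted p of 0.00357 for a log2 fold change of -2.40 with an SE of 0.59. Of the 6 names that led the MC-LR table, the 3 that follow were also among the most abundant members here. piR-mmu-13971141 measured 7.71 and 10.1 RPM with the Hsp90aa1 shRNA, against 95.1 and 71.4 RPM with the negative-control shRNA (log2 fold change -3.09, limma adjusted p = 0.000925). piR-mmu-5826076 measured 5.54 and 8.86 RPM with the Hsp90aa1 shRNA, against 100.1 and 60.5 RPM with the negative-control shRNA (log2 fold change -3.30, limma adjusted p = 0.000848). piR-mmu-15274002 measured 3.44 and 3.05 RPM with the Hsp90aa1 shRNA, against 59.0 and 54.0 RPM with the negative-control shRNA (log2 fold change -3.76, limma adjusted p = 0.000582). In these 3 names the groups lay far apart, relative to the distance between libraries of a group.

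Of the 6 most abundant members, the 2 longest had the smallest log2 fold changes. piR-mmu-247918 (32 nt, chr1:167340308-167340339), which shares its 3′ end with piR-mmu-28110196 and starts 6 nt earlier, was the 1 member not past the threshold. It measured 15.6 and 19.7 RPM with the Hsp90aa1 shRNA, against 59.7 and 29.97 RPM with the negative-control shRNA (log2 fold change -1.23, limma adjusted p = 0.0643). Its call changed with the setting, and its log2 fold change ranged from -1.71 to 1.66 over the settings run. piR-mmu-49158794 (34 nt, chr16:11144266-11144299) measured 5.54 and 16.99 RPM with the Hsp90aa1 shRNA, against 67.5 and 25.8 RPM with the negative-control shRNA (log2 fold change -1.98, limma adjusted p = 0.0182). In both names the libraries did not overlap but lay far apart within the negative-control group, and the call of piR-mmu-49158794 was lost without Hsp90aa1 shRNA A or negative-control shRNA A. The deepest fall by means was that of piR-mmu-3572418 (29 nt, chr1:167340331-167340359), with 1 read in each Hsp90aa1 shRNA library, 0.0748 and 0.0923 RPM, against 4.33 and 2.77 RPM with the negative-control shRNA.

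All 21 members of 17 to 20 nt were lower with the Hsp90aa1 shRNA, against 99.9% of all tested names of that length. Of 371 tested members of 21 nt or more, 370 were lower and 0 higher, against 99.5% and 0.245% of such names. piR-mmu-38464760 (18 nt) measured 2.84 and 0.185 RPM with the Hsp90aa1 shRNA, against 9.06 and 31.0 RPM with the negative-control shRNA. piR-mmu-37703021 (17 nt) measured 2.17 and 0.554 RPM with the Hsp90aa1 shRNA, against 8.34 and 30.3 RPM with the negative-control shRNA. piR-mmu-8475587 (18 nt, first stretch) measured 2.54 and 0.739 RPM with the Hsp90aa1 shRNA, against 7.21 and 18.5 RPM with the negative-control shRNA. In these 3 names the Hsp90aa1 shRNA library A was the higher of its group and the negative-control library B the higher of its own.

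Within the last stretch the size of the fall in summed level differed between length classes, but the order of the classes changed with single libraries. Under MC-LR the sum was 2.97-fold lower at 17 to 20 nt, 4.18-fold at 21 to 23 nt, 3.96-fold at 24 to 26 nt, 3.15-fold at 27 to 29 nt and 2.52-fold at 30 nt or more. Without control A these values were 1.70-, 3.42-, 3.46-, 3.07- and 3.20-fold, and without control B they were 4.24-, 4.95-, 4.46-, 3.23- and 1.85-fold. They were 2.62-, 4.72-, 4.14-, 3.45- and 2.60-fold without MC-LR A, and 3.43-, 3.76-, 3.80-, 2.90- and 2.45-fold without MC-LR B. With the Hsp90aa1 shRNA the same classes were 14.1-, 13.3-, 10.5-, 8.69- and 7.03-fold lower. Without negative-control shRNA A they were 20.4-, 15.7-, 10.8-, 8.21- and 4.95-fold lower, and without negative-control shRNA B 7.68-, 10.9-, 10.1-, 9.16- and 9.12-fold lower. They were 35.5-, 26.1-, 14.3-, 9.40- and 5.58-fold lower without Hsp90aa1 shRNA A, and 8.77-, 8.93-, 8.27-, 8.07- and 9.51-fold lower without Hsp90aa1 shRNA B, so neither comparison kept 1 order of lengths over these settings. Across names of the stretch, Pearson's r of length with the log2 ratio of means was 0.14 over 126 names for MC-LR and 0.51 over 119 names for the Hsp90aa1 shRNA, given as a description only, since the names overlap and come from the same libraries.

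Names of the last stretch can also be grouped by their 3′ end, and 2 ends are described here, chosen after their values were seen. The 5 names that end at base 11144287 of chromosome 16, piR-mmu-6476017 among them, summed to 34.8 and 32.3 RPM under MC-LR, against 272 and 188 RPM in control, 6.84-fold lower. The 11 names that end at base 11144295, the 3′ end of piR-mmu-13971141, summed to 413 and 321 RPM under MC-LR, against 785 and 899 RPM in control, 2.30-fold lower. Both sums were lower in each MC-LR library than in each control library, and the first by the larger ratio, though not by the larger difference in RPM. With the Hsp90aa1 shRNA, 4 names that end at base 11144287 summed to 2.40 and 1.48 RPM, against 36.0 and 51.9 RPM with the negative-control shRNA, 22.7-fold lower. The 9 names that end at base 11144295 summed to 29.6 and 29.2 RPM with the Hsp90aa1 shRNA, against 304 and 240.4 RPM with the negative-control shRNA, 9.25-fold lower. No test was made of the difference between these ends.

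**Figure D4:**
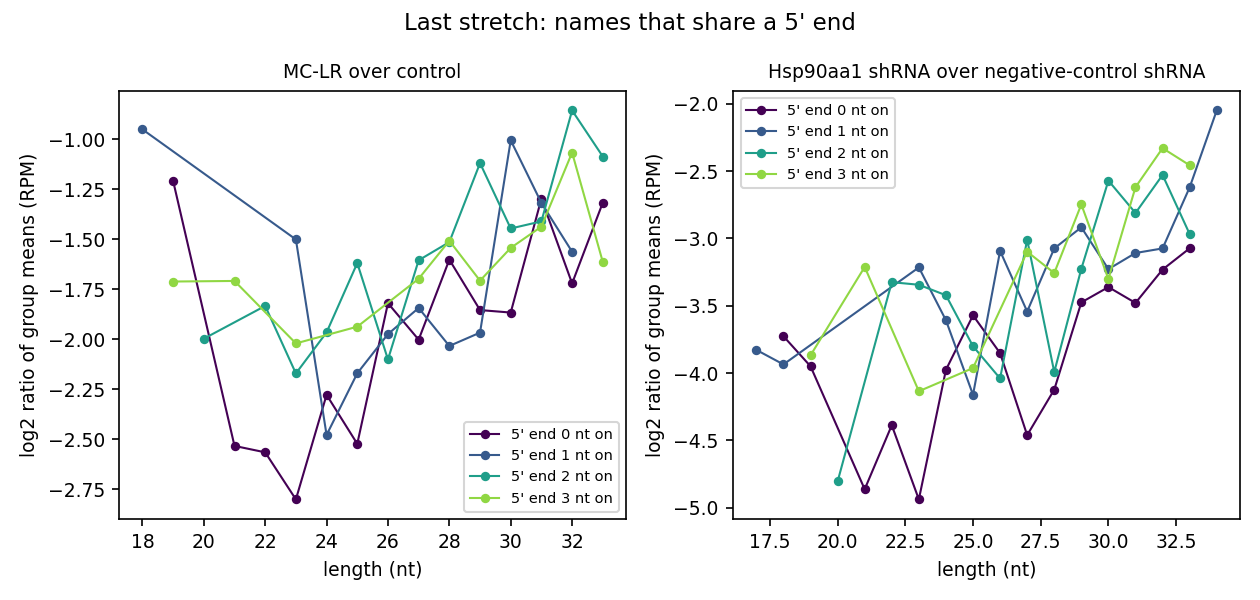
Log2 ratio of group means in RPM against length in nt for names of the last stretch that share a 5′ end, for MC-LR over control (left plot) and Hsp90aa1 shRNA over negative-control shRNA (right plot); each line is 1 of the 4 most abundant 5′ ends, numbered by their distance from the first. Points lie below 0 in both plots, and the 23 nt name of the first 5′ end has the lowest ratio in each.

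Of the 272 names in both tables, 183 were called lower in both comparisons, and for 0 did the direction of the group means differ. Lower calls made up 73.1% and 99.5% of all names tested in these comparisons, so nothing particular to the repeat is read from this count. The 94 members of the MC-LR table alone included both higher names. Their absence from the shRNA table may reflect a lack of reads in a single library.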

How the data were processed

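Small RNA of sperm was measured in 8 libraries, 2 per group, grouped by their titles. The authors deposited 2 tables of RPM per short RNA name and locus, each for 4 libraries; coordinates are printed 1-based, with the deposited starts taken as 0-based. The build mm10 and the tools HTSeq 0.6.0, HISAT2 2.1.0 and Bowtie2 2.2.3 are named per the submitters' processing notes; trimming and the treatment of multi-locus reads are not stated in the sources at hand. All RPM values were whole multiples of 1 read (100% within 0.01), which gave library totals. Nothing gives molecular identifiers, so floors cover counting error only.

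Testing was restricted to names averaging 1 RPM or more in either group and used limma 3.58.1 on log2(RPM + 1) (trend, robust) in R 4.3.3, over all names of a table, with Benjamini-Hochberg adjustment and a threshold of 0.05. A pseudocount of 1 understates the change of low names. On the recovered reads, edgeR 4.0.16 with library totals called 258 members lower and 2 higher for MC-LR; for the Hsp90aa1 shRNA it called 390 lower and 0 higher; DESeq2 1.42.0 was a further alternative. The fits were run on simulated counts in which a small set of names changed, up and down in equal number. The whole list was not shifted there, so the simulation does not test the choice of scaling. Overlapping names can hold the same reads and are not independent. Stretches are runs of overlapping names, and the run over 100 bp was split at its widest gap between starts, 17 nt. Named are the 6 most abundant members, members called higher, short members, and the deepest falls of each comparison, cut here to those the text turns on; the longer names around the higher ones and the names with printed sequence were added after values were seen. The members and lists were chosen with earlier results of these data known. Sequences are from GENCODE M21 transcripts (GRCm38).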

Additional observations from a re-analysis of the deposited data

How the results depend on the processing

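The 2 names higher under MC-LR were called in each of the 13 alternatives run, and 0 members were called higher with the Hsp90aa1 shRNA in each of its own. The counts of lower members, 247 under MC-LR and 391 with the Hsp90aa1 shRNA, depended on the scaling to library totals. They fell to 0 and 0 with DESeq2 size factors, to 0 and 0 with edgeR's TMM factors, and to 4 and 0 when each library was scaled by the median of the list, all of which set the middle of the listed names to no change. Scaled by the list median, 728 of all 13271 names tested were lower under MC-LR, and 7 of all 16857 with the Hsp90aa1 shRNA. Requiring a mean of 10 RPM left fewer names tested and gave 86 and 88. For MC-LR these were 86 of 100 members tested, against 247 of 358 in the main fit. The share of all names called is not given for this setting or for those that follow. With 1 library left out, lower members ranged from 105 (without MC-LR A) to 292 (without control B), and from 315 to 380 for the shRNA comparison, and the higher members stayed at 2 and 0; the lone library is then assumed to vary like the others. A replicate block gave 234 lower and 2 higher members for MC-LR, against 375 lower and 0 higher for the shRNA; the letters are not said to pair libraries, and the correlation of same-letter deviations was 0.07 for MC-LR and -0.61 for the shRNA comparison. The crossed pairing, added after seeing the data, gave 392 lower and 0 higher with the Hsp90aa1 shRNA.

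The log2 ratio of the summed level was -1.57 for MC-LR and -2.56 for the Hsp90aa1 shRNA. With only the most abundant name of each overlap it was -0.91 and -2.76, and scaled by the list median 0.010 and 0.41, turned in sign. With 1 library left out it ranged from -1.62 to -1.52 and from -2.69 to -2.43. Of the named members, log2 fold changes turned positive with DESeq2 size factors, TMM factors and the list median in MC-LR at 0.68, 0.64 and 0.56 for piR-mmu-13971141, 0.38, 0.35 and 0.34 for piR-mmu-5826076, 0.48, 0.43 and 0.47 for piR-mmu-34734452, 0.81, 0.78 and 0.60 for piR-mmu-55844084, 0.60, 0.59 and 0.37 for piR-mmu-52286977, and 0.087, 0.067 and 0.0099 for piR-mmu-3762304. piR-mmu-15274002 turned to 0.086 and 0.047 with the first 2 of these. With the Hsp90aa1 shRNA they were 0.46, 0.39 and 0.47 for piR-mmu-28110196, 1.66, 1.57 and 1.61 for piR-mmu-247918, and 1.06, 0.95 and 0.81 for piR-mmu-49158794. Depth limits the low members: 92 and 69 members had 3 reads or fewer in MC-LR A and B, while Hsp90aa1 shRNA A and B had 97 and 166 such members.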
